A study of Mus musculus with 9 samples.

Results

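The genes described here are 33 genes that red blood cell precursors use, followed through the spleens of 3 groups of mice. They were taken by name: every non-control probe whose accession maps to a listed symbol was kept. This gave 45 probes for 32 of the genes, out of 39429 probes on the array, and 9 of the genes had more than 1 probe. Ahsp was not matched to a probe and is named only. The series holds 9 spleen samples of female BALB/c mice, each on 1 Agilent array. In the first group the mice had no Graves' disease and a low dietary selenium supply (low Se non-GD, 3 arrays). The second was diseased on that same low supply (low Se GD, 3 arrays), and the third was diseased but normally supplied (normal Se GD, 3 arrays). In Graves' disease, autoantibodies drive the thyroid to overproduce hormone. The series title places the work between selenium supply and this disease. The sources used here do not say how the disease was induced, how old the mice were or what the diets held. They also do not say whether each array had an animal of its own, so the p-values cover the spread between arrays, part of which may be technical. There was no group with a normal supply and no disease.

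Red cells form in the bone marrow and, in the mouse, also in the red pulp of the spleen, where production expands when demand is high. Erythropoietin, acting through its receptor EPOR, keeps early precursors alive. GATA1, with its cofactor FOG1 (Zfpm1), TAL1 and KLF1 then switches on the genes of the mature cell: the membrane skeleton, the anion exchanger band 3, blood group proteins, carbonic anhydrases, haem enzymes and globins. GATA1 binds short GATA words and KLF1 binds C-rich words of the CACCC type. In RNA of whole spleen, fewer precursors and less RNA per precursor cannot be told apart.

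Start regions of members are shown because these words recur in them. RefSeq start regions (GRCm38.p6) were matched for 25 of the 33 genes, 33 regions in all, and the 250 bases before each start were searched on both strands. AGATAA or TGATAA was present in 13 of the 33 regions, against 16.6% of all 32851 regions in the table. CCNCNCCC, where N is any base, was present in 20 of 33, against 45.9% of all, and both kinds were in 3 of 33, against 4.52%. These are matches of letters, not measured binding sites. Counted by gene, GATA words stood before at least 1 start of 13 of the 25 genes, against 18.8% of all genes. In the regions below, written 5′ to 3′ along the gene and ending at the last base before its start, capitals mark the matches, read on either strand. TTATCT and TTATCA are the GATA words on the other strand. The first 5 genes carry a GATA word, and Mgst3, which rose most in the first comparison, carries C-rich words alone.
Klf1, chr8:84901732-84901981, plus strand: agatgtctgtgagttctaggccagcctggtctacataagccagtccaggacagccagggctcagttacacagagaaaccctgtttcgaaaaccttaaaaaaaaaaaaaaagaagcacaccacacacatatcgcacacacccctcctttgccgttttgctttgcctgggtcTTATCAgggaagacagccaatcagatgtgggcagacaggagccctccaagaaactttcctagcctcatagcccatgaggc
Epor, chr9:21963577-21963826, minus strand: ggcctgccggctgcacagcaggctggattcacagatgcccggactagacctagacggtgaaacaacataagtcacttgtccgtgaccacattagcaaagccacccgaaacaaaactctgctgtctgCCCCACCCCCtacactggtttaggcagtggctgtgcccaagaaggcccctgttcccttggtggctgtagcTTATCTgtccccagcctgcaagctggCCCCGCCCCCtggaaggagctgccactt
Rhd, chr4:134864286-134864535, plus strand: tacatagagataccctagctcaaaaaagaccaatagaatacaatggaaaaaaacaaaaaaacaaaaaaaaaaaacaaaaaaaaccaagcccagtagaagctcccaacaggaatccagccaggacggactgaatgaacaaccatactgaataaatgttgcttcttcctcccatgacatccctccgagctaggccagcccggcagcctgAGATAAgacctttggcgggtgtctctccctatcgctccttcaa
Kel, chr6:41704326-41704575, minus strand: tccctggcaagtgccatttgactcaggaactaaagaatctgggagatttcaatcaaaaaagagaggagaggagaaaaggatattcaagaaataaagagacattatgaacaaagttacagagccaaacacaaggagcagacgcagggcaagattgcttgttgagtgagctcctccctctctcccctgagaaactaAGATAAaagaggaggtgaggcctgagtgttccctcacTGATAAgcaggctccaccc
Art4, chr6:136857601-136857850, minus strand: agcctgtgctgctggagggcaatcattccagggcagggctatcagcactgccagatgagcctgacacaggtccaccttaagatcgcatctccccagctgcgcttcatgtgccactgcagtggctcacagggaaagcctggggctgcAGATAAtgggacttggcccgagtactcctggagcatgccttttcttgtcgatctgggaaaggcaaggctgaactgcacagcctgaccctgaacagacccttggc
Mgst3, chr1:167393842-167394091, minus strand: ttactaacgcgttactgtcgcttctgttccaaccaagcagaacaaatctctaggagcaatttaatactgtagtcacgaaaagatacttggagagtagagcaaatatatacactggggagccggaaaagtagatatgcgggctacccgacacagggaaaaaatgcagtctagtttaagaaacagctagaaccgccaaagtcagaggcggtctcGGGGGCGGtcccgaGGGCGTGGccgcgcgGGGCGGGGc
The Klf1 word begins 80 bases before the start, that of Epor 54, that of Rhd 43 and that of Art4 104. Kel holds a pair of GATA words, 56 and 19 bases before its start. In Epor the C-rich capitals are 2 runs that each hold 2 overlapping matches. In Mgst3 there are 3 matches, all read on the opposite strand. Of the members past the threshold in any comparison below, Art4 and Tmcc2 had a GATA word, and Epb41, E2f2, Tspan8, Add2 and Aqp1 had C-rich words only.

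A level here is the log2 processed signal of a gene's brightest probe minus the 75th percentile of its array, so that 0 stands for the brightness of a well expressed probe and 1 unit for a doubling. Levels were not compared between genes. All 32 matched genes were well above background on at least 3 of the 9 arrays and were tested. Sptb was near background, above it on 8 of 9 arrays, and the other 31 were above it on all 9. The share of spots well above background was 72.6% to 82.6% on 8 arrays and 58.4% on normal Se GD replicate 3. The latter also had the widest scatter among repeated spots of the same probe, an SD of 0.205 against 0.0462 to 0.0593 elsewhere. By their scan times the arrays fall on 3 slides. All 3 non-diseased arrays shared the first slide with replicate 1 of low Se GD. Its replicates 2 and 3 were on the second, beside replicates 1 and 2 of normal Se GD, whose replicate 3 was alone on the third. Of markers of the spleen's own cells, 10 of 10 B cell, 10 of 10 T cell and 11 of 11 red pulp macrophage markers could be tested. So could 8 of 10 pancreas and 10 of 11 fat genes, so being testable does not by itself mark spleen cells.

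In both low Se groups 1 array lay between the other arrays of its group. Low Se non-GD replicate 3 equalled a 50% to 50% mean of the signals of replicates 1 and 2, with a residual SD of 0.0485 over 9535 probes, the size of the scatter between spots of 1 probe on the same array (0.0462). It lay between replicates 1 and 2 for 31 of the 32 members, and its median distance from their equal mean was 0.027. Low Se GD replicate 2 came closest to 40% of replicate 1 plus 60% of replicate 3. The residual SD was 0.105, above its scatter between spots of 1 probe (0.055). This array lay between replicates 1 and 3 for 32 of 32 members. Normal Se GD replicates 1 and 2 differed by a median of 0.05 over the members, and with an SD of 0.195 over the 9535 probes. The sources used here do not say whether RNA was pooled. Results are therefore given with all 9 arrays and again with the 2 in-between arrays left out (7 arrays, chosen after seeing the data). With 7 arrays none of the 32 members passed the threshold in any comparison by limma, while 3, 13 and 3 had an unadjusted p under 0.05 in the 3 comparisons in order. The share of all genes at that unadjusted threshold was not counted, here or below, so such counts have no background beside them. Over all 26337 genes tested, the 7 arrays called 0.247% higher and 0.775% lower in the first comparison, 0% in either direction in the second, and 6.25% higher and 5.32% lower in the third.

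**Figure D1:**
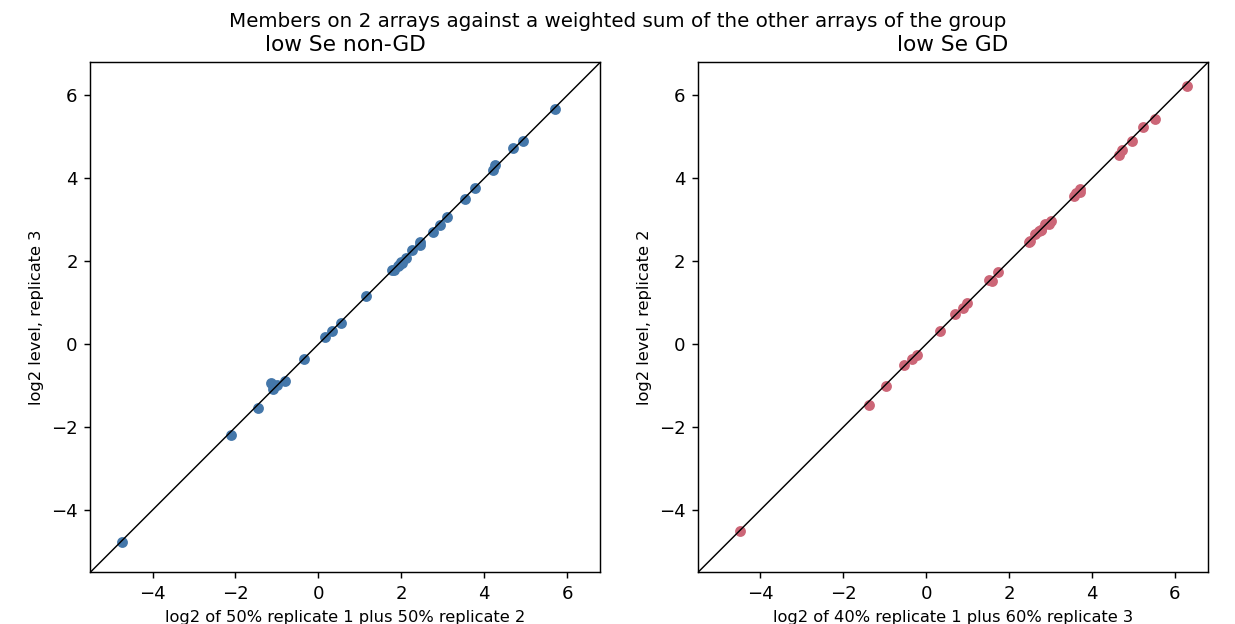
Levels of the 32 members (points) on low Se non-GD replicate 3 (left) and low Se GD replicate 2 (right), in log2 units, against the log2 of a weighted sum of the signals of the group's other 2 arrays. The line marks equality: the median distance of the members from it is 0.027 on the left and 0.025 on the right. The weights are the best fitting ones, 50% to 50% on the left and 40% to 60% on the right. At equal parts the distance on the right is 0.041.

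The members varied together, and within low Se non-GD they varied as far as between groups. Their median level was 2.57, 1.17 and 1.94 in low Se non-GD replicates 1, 2 and 3. In low Se GD it was 2.16, 2.69 and 2.86, and in normal Se GD 1.49, 1.47 and 1.88. The low Se non-GD arrays thus held both a level within the range of the low Se GD arrays and the lowest level of all. Replicate 1 was above replicate 2 for 31 of the 32 members, by a median of 1.44, and up to 2.41. Within low Se GD, replicate 3 was above replicate 1 for 30 of 32, by a median of 0.42. Group means were highest in low Se GD for 30 members, Add2 and Car1 being highest in low Se non-GD. They were lowest in normal Se GD for 21 members and in low Se non-GD for 11. A control probe of the array, 1 of its E1A set, differed between arrays as well. Its level was 4.72 to 5.86 in low Se non-GD, 1.01 to 2.51 in low Se GD and 0.87 to 2.37 in normal Se GD, while the other 9 E1A probes were dim on every array (-8.51 to -3.3). Within both low Se groups the order of the arrays by this probe was the reverse of their order by the members' median. The in-between array was in the middle both times. In normal Se GD, where the probe read 2.37, 1.43 and 0.87 in replicates 1, 2 and 3, the order was not the reverse. The part of this probe in the results was not tested.

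**Figure D2:**
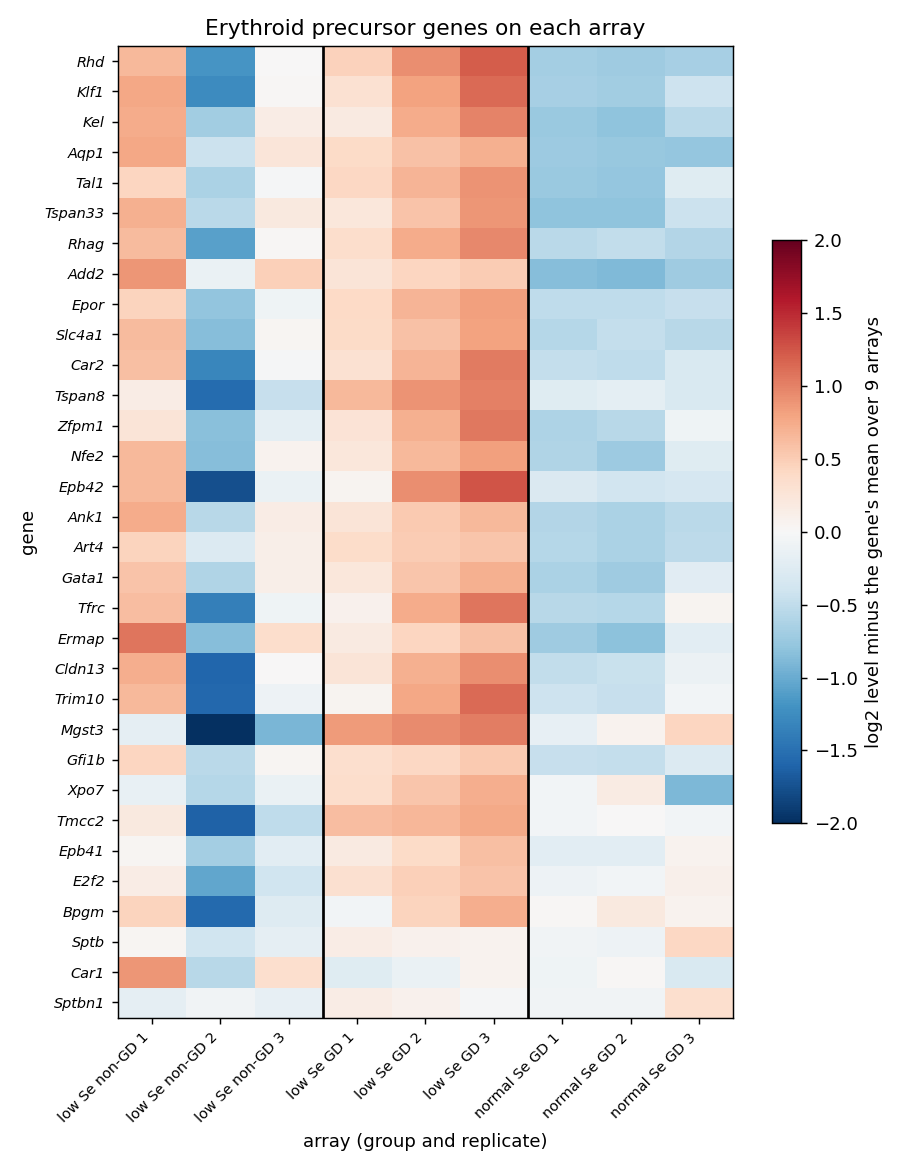
Level of each of the 32 members (rows) on each of the 9 arrays (columns), as the log2 difference from the gene's mean over the arrays, with vertical lines between groups and genes ordered by the difference between normal Se GD and low Se GD. Red cells fill the low Se GD columns and blue cells most of the normal Se GD columns, while the low Se non-GD columns run from red in replicate 1 to blue in replicate 2. Sptb, Car1 and Sptbn1, at the bottom, do not follow the others.

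The first comparison set diseased against non-diseased mice, both on the low supply. The members were higher in disease by a median of 0.76 log2 units, against 0.08 over all genes tested, and 30 of the 32 lay above 0. Of these, 5 rose past an adjusted p of 0.05 and none fell (limma with Benjamini-Hochberg adjustment over 26337 genes, at an unadjusted p under 0.05 there were 10 higher and 0 lower). Over all genes, 12.8% were called higher and 12.1% lower, so the members' 5 of 32 lies near that background. Normexp background correction turned this split over all genes to 8.53% higher and 12.3% lower, with 7 members called. The 3 low Se GD arrays lay wholly above the 3 low Se non-GD arrays for 9 members, with 29.5% of all genes in that position. For the other 23 the groups overlapped, with replicate 1 of low Se non-GD within or above the range of the diseased arrays.

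Mgst3, a microsomal glutathione transferase, changed most. Its level was -0.81, -2.7 and -1.54 in low Se non-GD, 0.22, 0.31 and 0.39 in low Se GD and -0.79, -0.57 and -0.21 in normal Se GD. All 3 diseased low Se arrays were above 0 and no other array was. The difference between low Se GD (0.3 ± 0.09, SD, n = 3) and low Se non-GD (-1.68 ± 0.95) was 1.98 (SE 0.42, limma adjusted p = 0.0123), and with 7 arrays 2.05 (limma adjusted p = 0.124). Tspan8, a tetraspanin of the cell surface, read 0.26, -1.43 and -0.35 in low Se non-GD, 0.76, 1.0 and 1.12 in low Se GD and -0.13, -0.09 and -0.2 in normal Se GD. It rose by 1.46 (limma adjusted p = 0.0243, 0.172 with 7 arrays), with no overlap between the low Se groups. Tmcc2, a membrane protein with coiled coils, read -1.47, -3.29 and -2.18 in low Se non-GD, -1.05, -1.01 and -0.92 in low Se GD and -1.73, -1.66 and -1.73 in normal Se GD. Its rise was 1.32 (limma adjusted p = 0.0422, 0.22 with 7 arrays), and its low Se GD arrays lay within 0.13 of each other where the low Se non-GD arrays spanned 1.82. E2f2, a cell cycle regulator of the last precursor divisions, read 3.25, 2.06 and 2.71 in low Se non-GD, 3.42, 3.58 and 3.67 in low Se GD and 3.0, 3.05 and 3.21 in normal Se GD and rose by 0.88 (limma adjusted p = 0.0459, 0.259 with 7 arrays). Epb41, which encodes the skeleton protein 4.1R, read 4.57, 3.84 and 4.32 in low Se non-GD, 4.71, 4.91 and 5.13 in low Se GD and 4.32, 4.32 and 4.6 in normal Se GD. It rose by 0.67 (limma adjusted p = 0.0455, 0.242 with 7 arrays), the smallest change among the 5.

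This comparison leaned on single arrays and on the slide. Without low Se non-GD replicate 1, 14 members rose (12.1% of all genes) with a median change of 1.0, and without replicate 2 it was 3 (8.12% of all genes) with a median of 0.31. Without replicate 3, or without low Se GD replicate 2 or 3, Mgst3 was the one member called (5.67% to 8.88% of all genes called higher). Without low Se GD replicate 1, or normal Se GD replicate 1 or 2, Mgst3 and Tspan8 were called (10.2% to 11% of all genes). Without normal Se GD replicate 3 it was 7 members (22.4% of all genes). On slide 1, where replicate 1 of low Se GD stands against the 3 non-diseased arrays and is taken to vary as they do, the median was 0.42. There 0 members were called by limma, with 0 at an unadjusted p under 0.05, while 1.58% of all genes were called higher and 2.01% lower. With slide as a block the median was also 0.42, with 0 members called and 3 higher at an unadjusted p under 0.05 (limma), where 15.0% of all genes were called higher. Replicates 2 and 3 of low Se GD share no slide with a non-diseased array, so for them slide and disease cannot be told apart.

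The second comparison, normal against low selenium supply in diseased mice, gave the most even picture. All 32 members were at or below 0, from -1.55 for Rhd to 0.00 for Sptbn1, with a median of -1.06 where that of all genes was 0.00. Under the other scalings of the arrays 29 to 31 of the 32 lay below 0. For 28 of the 32 members every normal Se GD array lay below every low Se GD array, a position that 11.4% of all genes took. The exceptions were Sptb, Sptbn1, Bpgm and Car1. Past the adjusted threshold, however, 1 member fell, Art4, with 0.292% of all genes called lower and 0.976% higher. At an unadjusted p under 0.05 there were 20 lower and 0 higher (limma), a count with no share of all genes to set beside it.

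Art4 encodes the carrier of the Dombrock blood group, an ADP-ribosyltransferase anchored in the membrane by a lipid. Its level was 0.65, -0.07 and 0.33 in low Se non-GD, 0.58, 0.72 and 0.76 in low Se GD and -0.37, -0.43 and -0.31 in normal Se GD. The normal Se GD arrays lay below all 6 others, and the diseased low Se arrays lay within 0.18 of each other. The difference between normal Se GD (-0.37 ± 0.06, SD, n = 3) and low Se GD (0.69 ± 0.09) was -1.05 (95% interval -1.46 to -0.65, limma adjusted p = 0.0443). With 7 arrays it was -1.04 with an adjusted p of 0.511 by limma. A second Art4 probe, far dimmer, differed by -0.08 and passed in no comparison. The members next in order were Add2 (-1.21, limma adjusted p = 0.0556), Aqp1 (-1.31, 0.064), Tal1 (-1.25, 0.0731), Epor (-1.12, 0.0892) and Tspan33 (-1.23, 0.0927). None of these passed.

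On slide 2, which holds 2 arrays of each diseased group, 27 of the 32 members fell, with a median of -1.28 and adjusted p values of up to 0.0431 (limma). There 4.8% of all genes were called lower and 5.8% higher. Klf1 (-1.66), Rhd (-1.77), Kel (-1.64), Tal1 (-1.55) and Tspan33 (-1.53) were among the 27. The spread behind these p-values is that between low Se GD replicate 3 and replicate 2, an in-between array, and that between normal Se GD replicates 1 and 2. With slide as a block over all arrays Art4 alone was called, where 1.78% of all genes were called lower, and the median was -1.28. Leaving out any 1 array other than normal Se GD replicate 3 left 0 members called by limma, with 14 to 28 lower at an unadjusted p under 0.05, while medians stayed between -1.21 and -0.92. Of all genes, 0% were called in either direction in these fits, except 0.0038% called lower without low Se non-GD replicate 2. The 0 members are thus the same as the background.

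**Figure D3:**
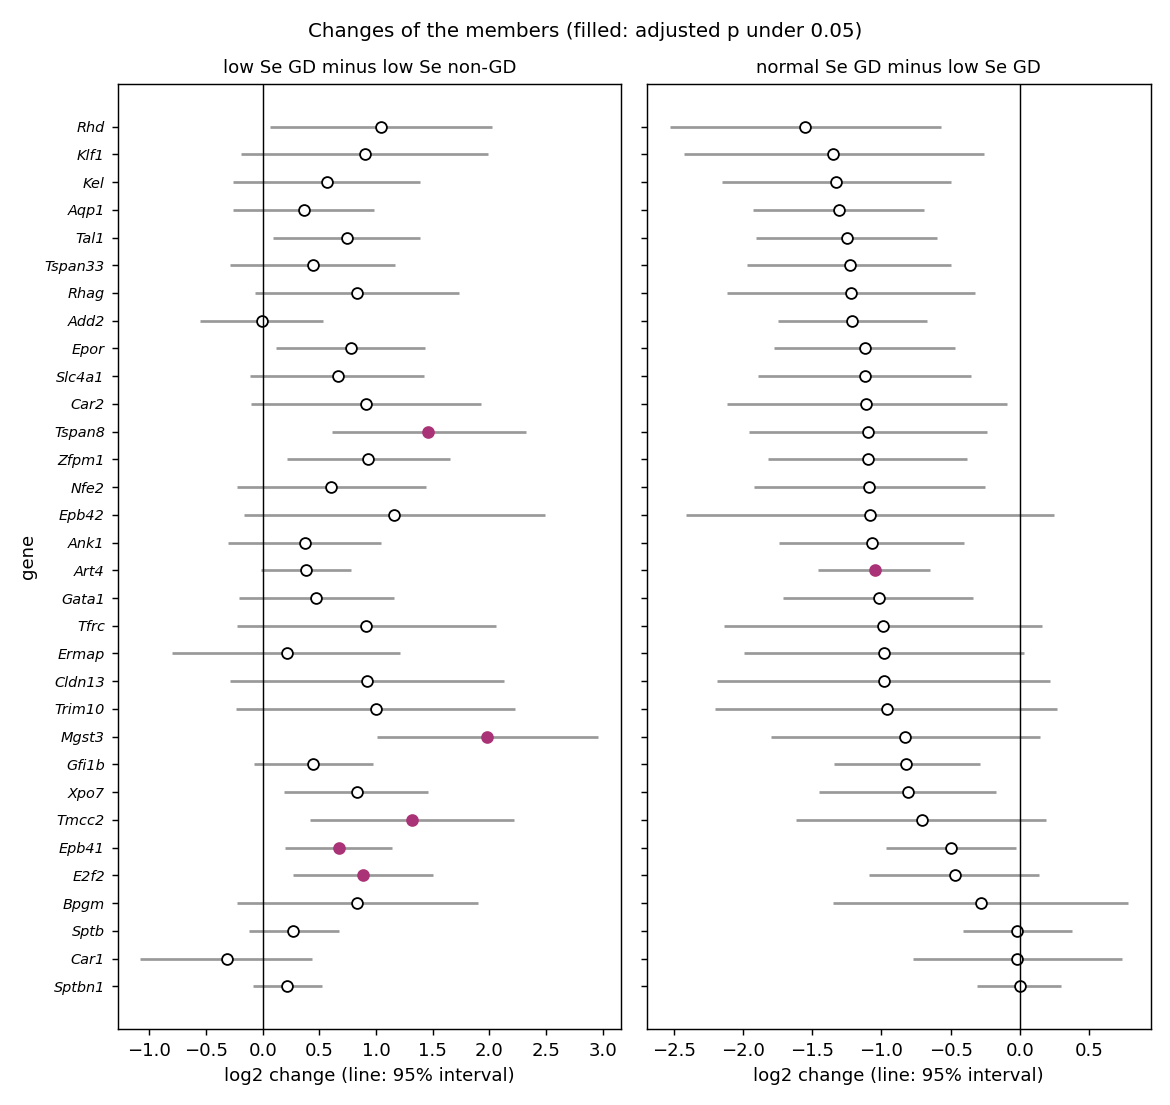
Log2 change of each of the 32 members (points) with its 95% interval (lines) in low Se GD minus low Se non-GD (left) and normal Se GD minus low Se GD (right), filled where the limma adjusted p is under 0.05. On the left 5 points are filled, all above 0. On the right most points lie near -1, Art4 alone is filled, and Sptb, Car1 and Sptbn1 lie at 0. The low Se GD arrays enter both panels, with opposite sign.

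The third comparison set normal Se GD against low Se non-GD and so differs in both disease and supply. Here 3 members fell, Add2, Aqp1 and Art4, and none rose, while 13.4% of all genes were called lower and 18.9% higher. The median was -0.34 (0.06 over all genes), with 21 members below and 11 above 0. The groups lay apart for 3 members on the lower side (21.1% of all genes) and for Sptbn1 and Mgst3 on the higher side (28.0% of all genes). These counts turned on single non-diseased arrays: without low Se non-GD replicate 2, 15 members fell (10.5% of all genes) and the median was -0.72. Without replicate 1, E2f2, Tmcc2 and Mgst3 rose (16.1% of all genes), Add2 and Art4 fell (11.2% of all genes) and the median was 0.01. Without low Se non-GD replicate 3, or normal Se GD replicate 1 or 2, Add2 alone was called (8.83% to 11.8% of all genes called lower). With slide as a block the median was -0.86 with 0 called and 2 lower at an unadjusted p under 0.05 (limma), where 5.4% of all genes were called lower. No slide holds both groups.

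Add2, the beta adducin that caps actin in the membrane skeleton, read 2.19, 1.18 and 1.79 in low Se non-GD, 1.57, 1.74 and 1.82 in low Se GD and 0.46, 0.43 and 0.6 in normal Se GD. All normal Se GD arrays lay below all others. Its fall against low Se non-GD was -1.22 (SE 0.23, limma adjusted p = 0.00639, 0.0609 with 7 arrays), while low Se GD and low Se non-GD differed by -0.01. Aqp1, the water channel of the red cell, read 5.41, 4.21 and 4.89 in low Se non-GD, 5.02, 5.23 and 5.36 in low Se GD and 3.91, 3.89 and 3.87 in normal Se GD. Its normal Se GD arrays lay within 0.04 of each other, below all 6 others, and it fell by 0.95 (limma adjusted p = 0.0296, 0.145 with 7 arrays). Art4 fell by 0.67 (limma adjusted p = 0.0212, 0.126 with 7 arrays). Add2, Aqp1 and Art4 are thus the members whose 3 normal Se GD arrays were below every array of both other groups.

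Among the 7 regulators of transcription, normal Se GD lay wholly below low Se GD for all 7 (11.4% of all genes), by -0.47 to -1.35. Of these 7, 0 passed, with 0.292% of all genes called lower. Gata1, the master regulator of the lineage, read 2.91, 1.74 and 2.46 in low Se non-GD, 2.57, 2.9 and 3.05 in low Se GD and 1.71, 1.63 and 2.11 in normal Se GD. Of the non-diseased arrays, replicate 2 was as low as normal Se GD, and the other 2 were within or near the range of low Se GD. Its differences were 0.47, -1.02 and -0.55 in the 3 comparisons, with limma adjusted p values of 0.286, 0.118 and 0.198. Klf1, the activator of adult beta globin and membrane genes, read 3.62, 1.59 and 2.88 in low Se non-GD, 3.15, 3.66 and 3.99 in low Se GD and 2.18, 2.15 and 2.44 in normal Se GD. It spanned 2.03 within low Se non-GD, more than its difference of -1.35 between diseased groups (95% interval -2.43 to -0.26). Tal1, a partner of GATA1 in the same DNA-bound complex, read 2.7, 1.64 and 2.26 in low Se non-GD, 2.69, 2.96 and 3.18 in low Se GD and 1.53, 1.5 and 2.03 in normal Se GD, a difference of -1.25 between the diseased groups (95% interval -1.91 to -0.6). Zfpm1, the GATA1 cofactor FOG1, read 2.44, 1.35 and 1.99 in low Se non-GD, 2.45, 2.9 and 3.23 in low Se GD and 1.56, 1.63 and 2.09 in normal Se GD on its brightest probe. The low Se GD arrays lay above all others. Both of its probes gave -1.1 between the diseased groups and 0.93 and 0.89 in the first comparison. The dimmer of these passed in a fit of all 31882 probes (limma adjusted p = 0.0470), in which 13.3% of probes were called higher, and the brighter did not in the fit of genes (0.0633). Nfe2, a regulator of globin loci that is shared with megakaryocytes, differed by -1.09 in the second comparison, and Gfi1b, a repressor shared with the same lineage, by -0.82. E2f2 had the smallest difference of the 7 in that comparison (-0.47).

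Of the receptors, Epor read 2.5, 1.26 and 1.97 in low Se non-GD, 2.46, 2.73 and 2.88 in low Se GD and 1.55, 1.54 and 1.6 in normal Se GD. The normal Se GD arrays lay within 0.06 of each other, and low Se non-GD replicate 2 was below them all. Epor differed by 0.78 in the first comparison (limma adjusted p = 0.083) and by -1.12 in the second. Tfrc, the transferrin receptor that brings iron into dividing and haem-making cells, read 2.63, 0.64 and 1.92 in low Se non-GD, 2.09, 2.75 and 3.08 in low Se GD and 1.45, 1.44 and 2.07 in normal Se GD on its brightest probe. Low Se non-GD alone covered 0.64 to 2.63, which holds 7 of the 9 values, and no comparison passed on that probe. The other Tfrc probes gave different changes. A dim one rose by 1.39 in the first comparison (limma adjusted p = 0.0352 over probes) and was above background on 2 of 3 arrays in each of the low Se non-GD and normal Se GD groups. The third fell by 0.80 in the second (limma adjusted p = 0.0311, with 0.383% of probes called lower) and by 0.68 in the third comparison (limma adjusted p = 0.00221, with 12.6% of probes called lower).

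The membrane skeleton and its anchors gave a mixed group. Slc4a1, band 3, exchanges chloride for bicarbonate and anchors the skeleton. It read 6.27, 4.78 and 5.68 in low Se non-GD, 6.02, 6.23 and 6.44 in low Se GD and 5.07, 5.16 and 5.09 in normal Se GD, all normal Se GD arrays below all low Se GD arrays (-1.12, 95% interval -1.89 to -0.35). Ank1, the ankyrin that ties spectrin to band 3, differed by -1.07, and Epb42, protein 4.2, by -1.08. Epb42 had the widest range within a group: 1.29, -1.12 and 0.5 in low Se non-GD. The beta spectrins stood apart. Sptb, the erythroid form, was near background at -4.99 to -4.17 and differed by -0.02. Sptbn1, the beta spectrin of most other cell types, read 3.48, 3.58 and 3.49 in low Se non-GD, 3.81, 3.75 and 3.63 in low Se GD and 3.59, 3.59 and 4.0 in normal Se GD on its brightest probe and differed by 0.00 (95% interval -0.31 to 0.3). It was also the only member for which low Se non-GD replicate 1 was below replicate 2. A second Sptbn1 probe read -1.57, -1.08 and -1.33 in low Se non-GD, -0.35, -0.54 and -0.92 in low Se GD and -0.59, -0.55 and -1.14 in normal Se GD. It rose by 0.72 in the first comparison (limma adjusted p = 0.0471 over probes, 0.287 with 7 arrays), and the third probe differed by -0.18 there.

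Among channels and blood group proteins all 6 were wholly lower in normal Se GD than in low Se GD (11.4% of all genes), by -0.98 to -1.55. Rhag, the Rh-associated glycoprotein that carries ammonium or gas, read -0.47, -2.18 and -1.07 in low Se non-GD, -0.74, -0.36 and -0.14 in low Se GD and -1.63, -1.59 and -1.69 in normal Se GD. Rhd, its partner in the Rh complex, read 4.42, 2.58 and 3.77 in low Se non-GD, 4.23, 4.69 and 4.97 in low Se GD and 3.09, 3.05 and 3.1 in normal Se GD, with the normal Se GD arrays within 0.05 of each other. The difference of Rhd, -1.55 (SE 0.42, limma adjusted p = 0.105), had the largest size of the 32 in the second comparison. Kel, the Kell endopeptidase, differed by -1.33 and Ermap, which carries the Scianna group, by -0.98 on its brightest probe.

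The enzymes split. Car2, the fast carbonic anhydrase, read 5.35, 3.44 and 4.72 in low Se non-GD, 5.05, 5.42 and 5.78 in low Se GD and 4.26, 4.23 and 4.43 in normal Se GD and so followed the other members, with a difference of -1.11 between diseased groups. Car1, the slower form and a late erythroid product, read -0.44, -1.89 and -0.99 in low Se non-GD, -1.57, -1.46 and -1.26 in low Se GD and -1.41, -1.3 and -1.63 in normal Se GD. Its 6 diseased arrays lay between -1.63 and -1.26 with both groups mixed, a difference of -0.02 (95% interval -0.77 to 0.74), and its second probe gave -0.42 and passed in no comparison either. The change of Car1 in the first comparison, -0.32, had the opposite sign to that of Car2, 0.91, and neither passed. Bpgm, which makes the regulator of oxygen release 2,3-bisphosphoglycerate, read 2.5, 0.49 and 1.79 in low Se non-GD, 1.99, 2.49 and 2.78 in low Se GD and 2.07, 2.24 and 2.12 in normal Se GD, the diseased groups overlapping (-0.28). Whether the change of Car1 or Bpgm differs from that of the other members was not tested.

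Of the remaining members, Trim10, a ring finger protein of terminal differentiation, differed by -0.96 in the second comparison, the tetraspanin Tspan33 by -1.23, Tspan8 by -1.1, the claudin Cldn13 by -0.98, the nuclear exporter Xpo7 by -0.81 and Tmcc2 by -0.71. For all 6 every normal Se GD array was below every low Se GD array (11.4% of all genes), and 0 passed (0.292% of all genes called lower).

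**Figure D4:**
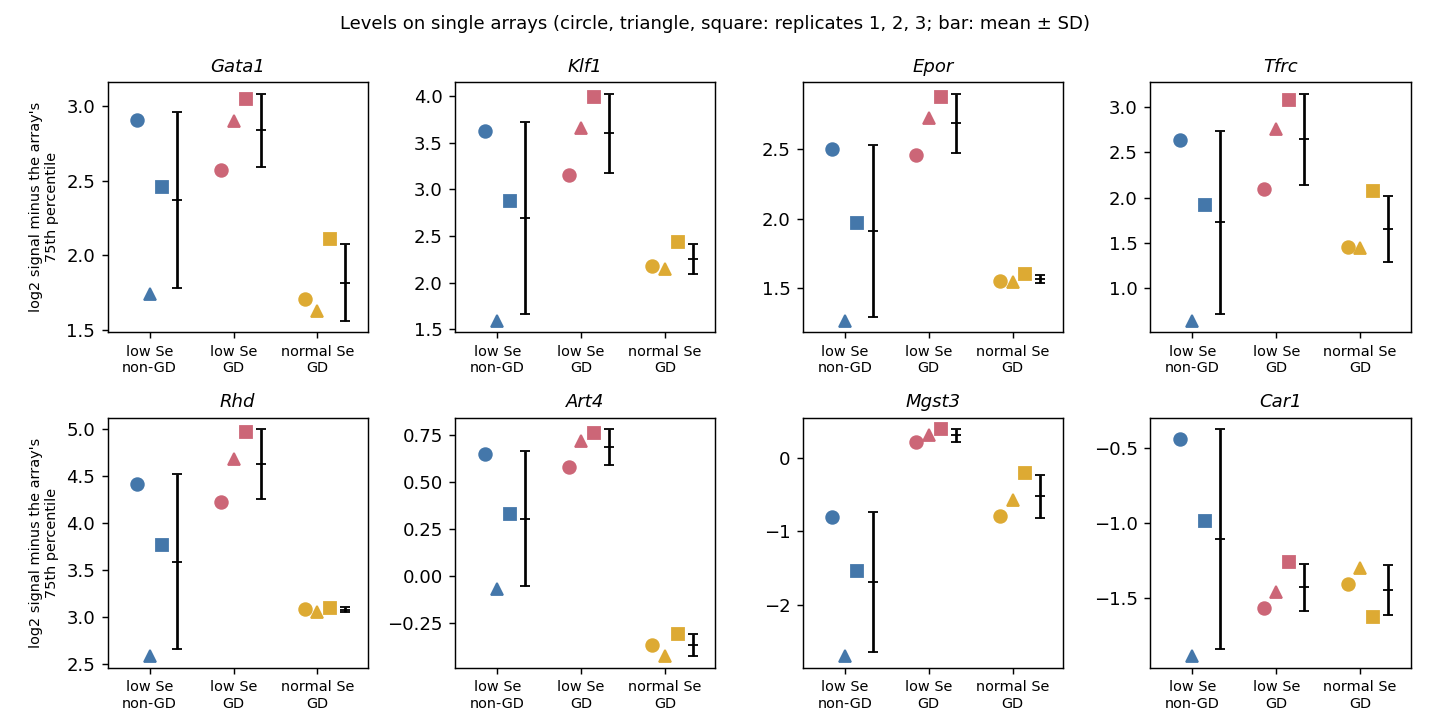
Level of 8 members on each array (log2 units above or below the 75th percentile of the array; circle, triangle and square are replicates 1, 2 and 3) by group, with the mean and SD of 3 arrays as bars. In 7 of the 8 panels the normal Se GD points lie below the low Se GD points (11.4% of all genes), and in the panel of Car1 they mix. The low Se non-GD points spread widely, with replicate 3 between replicates 1 and 2.

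Probes of 1 gene did not always give the same change. For Epb41 the brightest probe and a dim one rose in the first comparison (0.67 and 1.08), while the third read -0.70. In the third comparison the last 2 moved apart past the threshold, by 0.90 (limma adjusted p = 0.0469 over probes) and -1.02 (limma adjusted p = 0.0371). Probes of Art4, Ermap, Sptbn1 and Xpo7 also had both signs in the first comparison, while both Mgst3 probes rose (1.98 and 2.03). Counted by probe, 10 of 45 rose in the first comparison (13.3% of all probes) and 3 fell in the second (0.383%). In the third 1 rose (20.9%) and 5 fell (12.6%). In the second comparison 33 of the 45 probes lay wholly lower in normal Se GD, against 10.8% of all probes.

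Other red cell genes were read from lists that name no member. The 12 haem synthesis genes were all lower in normal Se GD than in low Se GD, by a median of -0.87. Their groups lay apart for all 12 (11.4% of all genes), although 0 passed (8 at an unadjusted p under 0.05, limma), with 0.292% of all genes called lower. Their median level was 3.49, 2.37 and 3.04 in low Se non-GD, 3.17, 3.52 and 3.72 in low Se GD and 2.4, 2.39 and 2.37 in normal Se GD, so that replicate 2 of low Se non-GD was again as low as the normal Se GD arrays. Alas2, the first enzyme of erythroid haem synthesis, differed by 0.73, -0.55 and 0.18 in the 3 comparisons. Ppox, a late enzyme of the pathway, rose by 0.64 in the first (limma adjusted p = 0.0437), and Slc25a38, which imports glycine into mitochondria, fell by 0.71 in the third (limma adjusted p = 0.0495). Of 30 other red cell genes tested, the median in the second comparison was -0.70. The groups lay apart on the lower side for 19 (11.4% of all genes) and 0 passed (12 at an unadjusted p, limma). In the first comparison 4 of the 30 rose, Cd24a, Ube2o, Minpp1 and Slc14a1, which lies near the 12.8% of all genes called higher.

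Globins gave other values. The 7 tested differed by a median of -0.05 in the second comparison, the groups overlapped for all 7, and none passed in it (0 at an unadjusted p under 0.05, limma). Hba-a1 read 8.55, 7.11 and 8.10 in low Se non-GD, 8.25, 7.68 and 7.89 in low Se GD and 7.97, 7.98 and 7.91 in normal Se GD. Its diseased groups overlapped at a difference of 0.01. Hbb-bs, a beta globin, read 2.29, -0.14 and 1.56 in low Se non-GD, 2.61, 2.41 and 2.37 in low Se GD and 3.08, 3.31 and 2.49 in normal Se GD. Both diseased groups lay above low Se non-GD, by 1.23 in the first comparison (limma adjusted p = 0.146) and by 1.72 in the third, where it rose (limma adjusted p = 0.0458, 0.133 with 7 arrays). The medians of the 7 in those comparisons were 0.28 and 0.05, with 0 called by limma in the first (0 at an unadjusted p under 0.05). Globin copies are near-identical in sequence, so probes of this family cannot be assigned to 1 copy with certainty. Of 28 genes of erythropoietin signalling and its regulators, the median in the second comparison was -0.03. There 1 rose (0.976% of all genes), Socs2, an inhibitor of cytokine receptors (0.78, limma adjusted p = 0.0411). In the first comparison 4 of the 28 rose (12.8% of all genes) and 2 fell (12.1% of all genes). Foxo3 had the largest change, a fall of 3.64 (limma adjusted p = 0.0153, 0.156 with 7 arrays). It fell by 4.49 in the third comparison (limma adjusted p = 0.00513, 0.0485 with 7 arrays). Gata2, the factor that GATA1 replaces as precursors mature, fell by 1.57 in the first comparison (limma adjusted p = 0.000529), and with 7 arrays by 1.60 (adjusted p = 0.0378 by limma). Myb, a regulator of early precursors, rose by 0.83 in it (limma adjusted p = 0.00389). Erfe, the hormone by which precursors signal iron demand, was near background and differed by -1.18 in the second comparison. Kit, the receptor of the earliest precursors, differed by 0.23 there.

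Markers of other cells and of division were read beside these values, and their part in the result was not tested. The 22 cell cycle genes differed by a median of -0.78 in the second comparison, with groups apart on the lower side for 20 (11.4% of all genes) and 0 called (15 at an unadjusted p, limma). Their summed level, the log2 of the summed scaled signals, was 6.29 to 7.41 in low Se non-GD, 7.10 to 7.60 in low Se GD and 6.51 to 6.72 in normal Se GD. That of the 32 members was 7.12 to 8.47, 8.21 to 8.74 and 7.42 to 7.61. The 10 fat genes tested of 11 had a summed level of 2.41 to 3.36, 3.47 to 6.33 and 2.09 to 2.32 in the same order, and Adipoq fell by 5.59 in the second comparison (limma adjusted p = 0.0448). The 10 B cell markers read 6.95 to 7.15, 6.56 to 6.63 and 6.8 to 6.92, and 2 of them rose in the second comparison (0.976% of all genes), Fcer2a (0.94) and Blk (0.64). The 11 red pulp macrophage markers read 5.85 to 5.87, 5.98 to 6.43 and 6.37 to 6.56. In the first comparison 7 of them rose (12.8% of all genes) and 1 fell (12.1% of all genes), with 0 called in the second (3 at an unadjusted p, limma). The 15 megakaryocyte markers, a lineage that shares Gata1, Zfpm1, Nfe2 and Gfi1b with red cells, had a median difference of 0.05 in the second comparison, with groups apart for none and 0 called (0 at an unadjusted p, limma). In the first comparison 5 of the 15 rose (12.8% of all genes) and 0 fell (12.1% of all genes), with a median of 0.37. These were Thbs1, thrombospondin (1.44), the platelet chemokines Ppbp (1.19) and Pf4 (0.62), Gp1bb (0.5) and Selp (0.48). In the third comparison 4 rose (18.9% of all genes) and 0 fell (13.4% of all genes). Of 8 pancreas genes tested, 2 fell in the first comparison (12.1% of all genes) and 0 rose (12.8% of all genes), with a median of -0.01. These were Pnlip (-3.24, limma adjusted p = 0.00182, 0.0619 with 7 arrays) and Ins2 (-1.61, limma adjusted p = 0.00383, 0.0827 with 7 arrays).

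**Figure D5:**
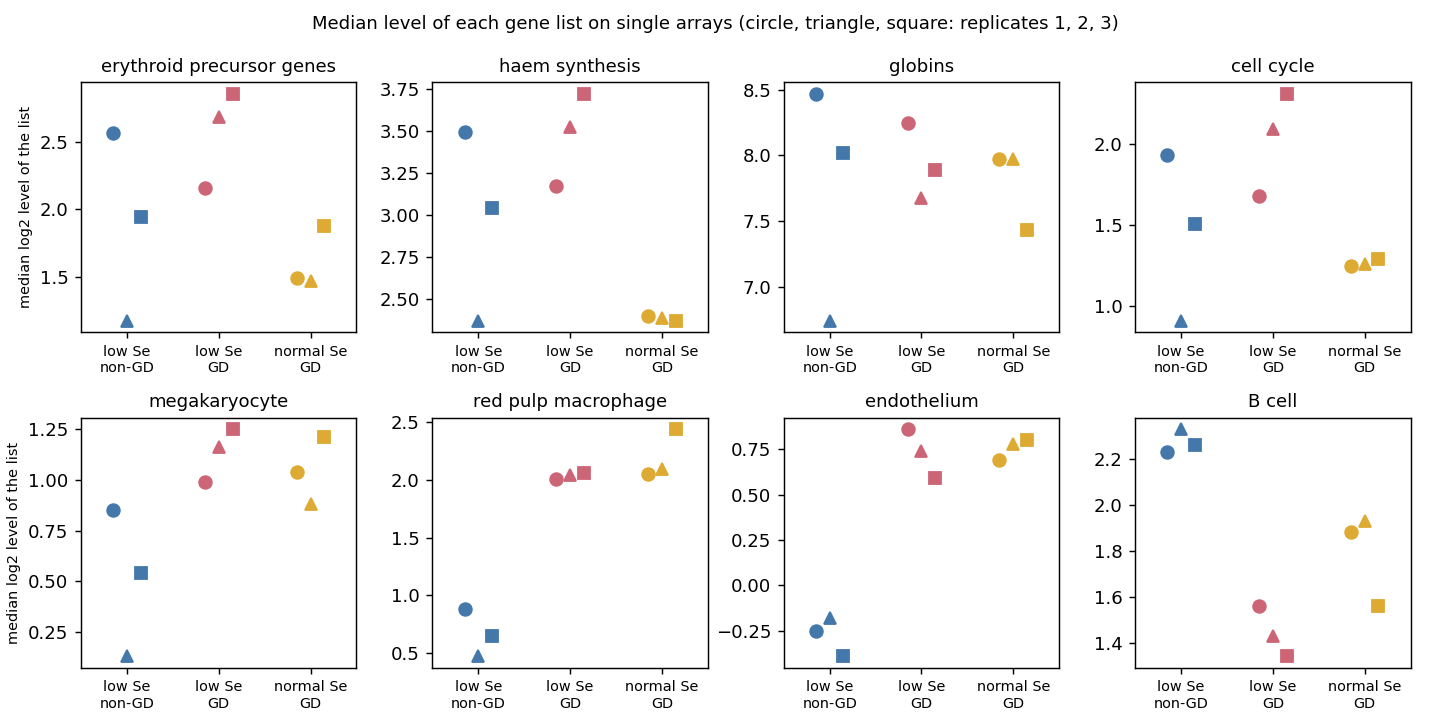
Median level (log2 units above or below the 75th percentile of the array) of 8 gene lists on each array, by group; circle, triangle and square are replicates 1, 2 and 3. Haem synthesis and cell cycle genes, like the erythroid precursor genes, are lowest in replicate 2 of low Se non-GD and in the normal Se GD arrays. The diseased groups mix in the panels of globins and megakaryocyte genes.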

How the data were processed

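RNA of 9 mouse spleen samples was read on 1-colour Agilent arrays, 3 per group, and samples were grouped by their labels. Per the file headers, the deposited spot intensity is the processed signal of Agilent Feature Extraction 11.0.1.1, with background subtracted, spatial trend removed and no scaling between arrays. The authors' deposited log2 table, whose making the labels do not state, served only as an alternative. In that table each non-diseased column had a higher rank correlation with a differently numbered array of its group (0.9973 to 0.9976) than with its own (0.9796 to 0.9866), so which replicate is which is not certain there.

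The signals were taken as log2 minus the 75th percentile of each array, without 1377 control spots. RefSeq (GRCm38.p6) accessions named 27234 of 39429 probes. The brightest probe stood for a gene, and a probe had to be well above background on at least 3 arrays, which 6067 genes or unnamed probes were not. All 9 arrays entered 1 limma 3.58.1 fit (R 4.3.3), with Benjamini-Hochberg adjustment over 26337 genes or unnamed probes, called genes in the text, and a threshold of 0.05. Intervals are 95% intervals of the fit, and ± is the SD of 3 arrays. The fit was tested on simulated data with noise independent between arrays and between genes. That simulation held no slides and no in-between arrays, so it cannot show how the p-values hold with them. The number of arrays limits the precision.

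The members and the other gene lists were chosen with earlier results of these data known, so they lend no independent support to a pattern. Members past the threshold on any probe, and a set of core members, are given on every array by their brightest probe. Of other lists, up to 4 of the called genes with the largest changes in a comparison could be named. Same-numbered samples gave no sign of a pairing, and replicate numbers were not used in the main analysis. The normexp alternative (offset 50) used median spot signals, since the files analysed here hold no mean signals.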

Additional observations from a re-analysis of the deposited data

How the results depend on the processing

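The main analysis called 5, 1 and 3 of the 32 members in the 3 comparisons in order, and these counts moved with most choices, while no named member that was called changed sign. The share of all genes called moved as well. It stands in brackets, on the higher side for the first comparison and on the lower side for the others. In the first comparison 3 were called with the 75th percentile over spots well above background on all arrays (11.5%) and 2 with no filter on dim probes (8.61%). It was 3 with only the 2 groups compared (18.2%), 1 with slide as a random block (14.4%) and 0 with slide as a fixed block (15%). Within slide 1 the median change was 0.42. Normexp gave 7 (8.53%), and a filter on all 9 arrays 7 of 31 (18.7%). Quantile normalization (14.9%) and the authors' values (15%) gave 6 each, limma with trend and robust 5 (13.6%) and the mean of all probes 4 (12.3%). In the second, 0 were called by limma with quantile normalization (0%), normexp (0%), no filter (0%) or only the 2 groups (0%). It was also 0 with the authors' values (0.0038%) and the mean of all probes (0.243%). In these settings 18 to 28 members were lower at an unadjusted p under 0.05 (limma). For the settings at 0%, which called no gene in either direction, 0 members in the second comparison is the same as the background. The percentile over well-detected spots called 2 there (0.376% of all genes called lower), a filter on all 9 arrays 5 (1.91%), limma with trend and robust 3 (0.532%), slide as a random block 7 (2.27%) and slide 2 alone 27 (4.8%). In the third, only the 2 groups gave 1 (10.5%), slide as a random block 1 (8.71%), and slide as a fixed block 0 (5.4%) with a median of -0.86. The replicate block called 2 (9.11%), 0 (0%) and 2 (11.8%), the second with 20 lower at an unadjusted p under 0.05 (limma). Deviations from the group means correlated at -0.212 to 0.0988 between same-numbered samples of different groups, and at -0.249 to 0.236 between differently numbered ones. This check cannot exclude a pairing under other numbers, since the numbering is uncertain in the authors' table. Leaving out 1 array gave 1 to 14, 0 to 1 and 1 to 15 calls. Of all genes, these fits called 5.67% to 22.4% higher in the first comparison and 0% to 1.2% lower in the second. In the third they called 8.83% to 16.6% lower and 11.7% to 27.2% higher. Leaving out the in-between arrays gave 0 (0.247%), 0 (0%) and 0 (5.32%), and by probe 0, 0 and 1 of 45. Averaging normal Se GD replicates 1 and 2 as well gave 0 (0%), 0 (0%) and 0 (0%), when 2, 4 and 1 passed unadjusted (limma). Both of these were chosen after seeing the data. The cause of these shifts was not tested. Over all genes normexp moved the median change by -0.24 in the first comparison, from 0.08 to -0.16, and by 0.16 in the second. Members near background, such as Sptb, limit what signal could show.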
